A study of Mus musculus with 12 samples.

Results

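The genes of the collagen chains, the laminin chains and fibronectin were examined in the kidney of mice given cannabidiol (CBD). Protein-coding genes were taken by their GENCODE symbol, as Col followed by a type number and a chain number, as Lam followed by a, b or c and a chain number, or as Fn1. Of 56 such genes, 46 had at least 10 counts in at least 4 of the 12 libraries and were kept, and all 46 were among the 17163 genes that passed the filter for testing. They comprise 19 genes of the basement membrane (6 collagen IV chains, 11 laminin chains, and Col15a1 and Col18a1), 9 genes of fibrillar collagens and 18 others, Fn1 included. Just inside the rule were Col25a1, with at least 10 counts in 5 libraries, all of treated mice, and Col11a2, in 8 libraries. Just outside it were Col28a1, in 3 libraries, and Col8a2, in 2 libraries.

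Basement membranes are thin sheets under epithelia and around vessels, in which networks of laminin and of collagen IV are joined by nidogen and perlecan. Collagen IV is built from trimers, of which a trimer of Col4a1 and Col4a2 chains occurs in nearly all basement membranes and a trimer of Col4a3, Col4a4 and Col4a5 chains makes the main network of the mature glomerular filter, where it is secreted by podocytes. Fibrillar collagens, chiefly types I, III and V, form the fibers of the interstitium and are the main proteins deposited in renal fibrosis.

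Kidneys of 12 male C57BL/6J mice, 60 days old at the start, were sequenced from poly(A) RNA with 1 library per mouse. The control group (4 mice) received daily intraperitoneal injections of saline with Tween 80 for 28 days. The other groups (4 mice each) received 10 mg or 20 mg of CBD per kg b.w. in that vehicle on the same schedule. The labels give no disease model or genetic change for any group, and both dose groups were compared with the same control mice.

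The files held between 15417867 and 23532088 counts on genes per library. The share of counts on mitochondrial genes ranged from 3.53% to 23.4%, and the share of uniquely mapped reads on no gene from 12.1% to 19.9%. That second share was highest in mice 1 and 3 of the group treated with 10 mg (17.0% and 19.9%) and mouse 3 of the group treated with 20 mg (17.9%), which also had the 3 lowest mitochondrial shares (3.53%, 4.55% and 5.54%), with control mouse 2 next at 5.77%. These 3 libraries stood apart for part of the matrix genes, and values fitted without them, which leave 2 mice in the group treated with 10 mg, are given for the results they moved most. Markers of the proximal tubule, the main kidney epithelium, summed to between 27400 and 35060 CPM (counts scaled to the total of a library) in all 12 libraries. Most of that sum was Kap, at 16210 to 24560 CPM, and the other markers are described at the end. In bulk tissue, fewer cells of a type and less RNA per cell cannot be told apart.

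The collagen IV genes lie in head-to-head pairs, and the arrangement bears on how their reads can be separated. On GRCm39, Col4a1 (chr8:11248423-11362826, minus strand) and Col4a2 (chr8:11362471-11499287, plus strand) overlap by 356 bases at their 5′ ends, and Col4a4 (chr1:82426144-82564800, minus strand) and Col4a3 (chr1:82564642-82699780, plus strand) by 159 bases. Exons shared in these overlaps come to 311 and 159 bases. The strand setting of the counting was not given in the sources used here, so reads from the shared ends cannot be assigned to either gene. Col4a6 (chrX:139948399-140257072, minus strand) and Col4a5 (chrX:140258354-140472231, plus strand) do not overlap and are separated by 1281 bases. The 250 bases upstream of each start are shown because this gap is shared by a chain with a moderate level in kidney and a chain near the limit of counting. Sequence is from GRCm39, 5′ to 3′ on the gene's own strand. Capitals mark motifs of promoters found on either strand. The GC box was searched as GGGCGG. The CCAAT box was searched by the letters of its name. The TATA box was searched as TATAAA. No matches overlapped in the windows shown.
Col4a6 (chrX:140257073-140257322): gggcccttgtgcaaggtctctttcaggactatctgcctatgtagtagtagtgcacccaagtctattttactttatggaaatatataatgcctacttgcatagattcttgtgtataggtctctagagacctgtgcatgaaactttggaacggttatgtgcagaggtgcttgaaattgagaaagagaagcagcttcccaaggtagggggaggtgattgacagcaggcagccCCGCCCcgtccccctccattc
Col4a5 (chrX:140258104-140258353): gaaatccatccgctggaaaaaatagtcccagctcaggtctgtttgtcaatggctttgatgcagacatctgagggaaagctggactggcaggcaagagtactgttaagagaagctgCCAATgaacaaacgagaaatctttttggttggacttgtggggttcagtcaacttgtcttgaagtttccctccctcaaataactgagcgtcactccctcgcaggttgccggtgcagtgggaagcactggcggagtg
The Col4a6 window held 1 GC box and no other motif, and the Col4a5 window 1 CCAAT box and no other motif. Among the same windows of 21757 protein-coding genes, 29.9% held a GC box, 36.1% a CCAAT box and 12.5% a TATA box. Of the 46 matrix genes, 19, 14 and 6 held them.

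In the control group, basement membrane genes were the most abundant matrix transcripts when counts were divided by exon length. Col4a3 stood at 33.2 ± 2.90 CPM per kb (mean ± SD, n = 4 here and below), followed by Col4a2 (27.5 ± 3.51), Col4a1 (26.9 ± 2.36), Col4a4 (26.5 ± 2.76) and Col18a1 (23.9 ± 3.21). The ranges of mean ± SD of neighbours in this order overlapped. Of the laminin chains, Lamb1 (15.4 ± 1.37 CPM per kb) and Lamb2 (13.3 ± 1.44), which are alternative beta chains, were the most abundant, and Lama5, the alpha chain of mature kidney basement membranes, stood at 7.43 ± 0.677. Col27a1 was the most abundant fibrillar gene at 10.2 ± 0.417 CPM per kb. The chains of collagen I and III stood lower, with Col1a2 at 2.47 ± 0.411, Col3a1 at 2.08 ± 0.301 and Col1a1 at 1.51 ± 0.234. Col4a6 (0.183 ± 0.0558 CPM per kb) and Col25a1 (0.0203 ± 0.00856) were among the lowest. Exon length is the union over all annotated transcripts of a gene, so levels of genes with many isoforms are understated.

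**Figure D1:**
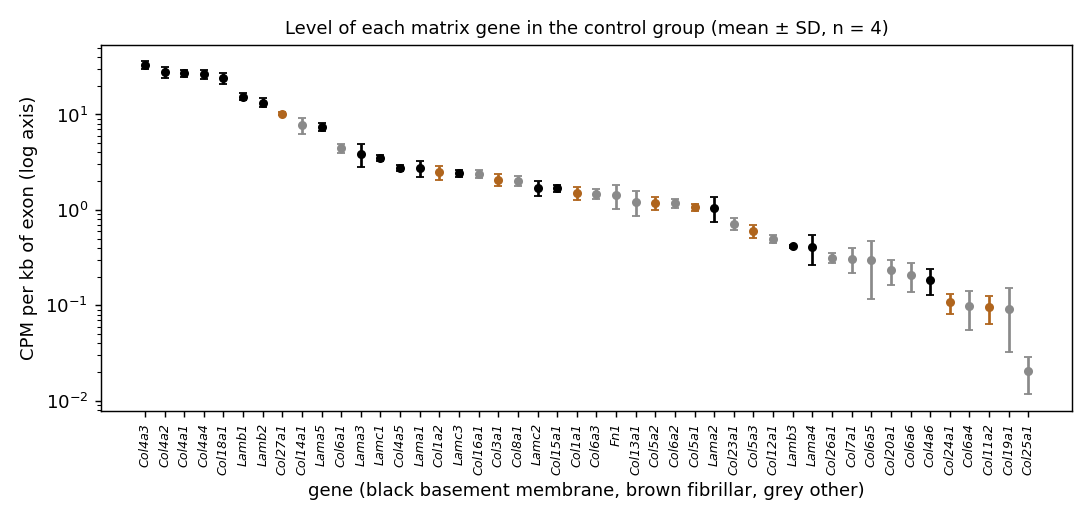
Level of the 46 matrix genes in the control group, in CPM per kb of exon on a log axis, as mean ± SD of 4 mice, with genes in order of their mean. The 5 highest genes are Col4a3, Col4a2, Col4a1, Col4a4 and Col18a1, all of the basement membrane, and the highest fibrillar gene is Col27a1 at 10.2.

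No matrix gene was called in any comparison, where a call was an adjusted p-value below 0.1 in the quasi-likelihood test of edgeR. With 10 mg against control, 0 of 46 were called, where 0.0291% of all genes tested were. With 20 mg against control, 0 of 46 were called, where 0.303% of all genes were. With 20 mg against 10 mg, 0 of 46 were called, where 0% of all genes were. The smallest adjusted p among the matrix genes (edgeR, Benjamini-Hochberg) was 0.812, 0.337 and 0.758 in these comparisons. At an unadjusted p under 0.05 there were 5, 6 and 8 matrix genes, where all genes tested gave 5.67%, 8.45% and 6.31%. DESeq2 called 0, 2 and 1 of the 46, 45 and 37 matrix genes to which it gave an adjusted p (0.189%, 1.01% and 0.102% of all such genes). They were Col4a3 and Col6a5 at 20 mg against control and Col4a3 at 20 mg against 10 mg. limma-voom called none of them in any comparison. Without a filter on low counts, edgeR called 4, 2 and 4 matrix genes (0.827%, 1.04% and 0.64% of all genes). At 20 mg against control, 3 were called with the mitochondrial share as covariate (8.07% of all genes), and 1, Col4a3, without the libraries of a mitochondrial share under 10% (0.611% of all genes).

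The direction of the differences was uneven. At 10 mg, 39 of the 46 fitted log2 fold changes against control were above 0, with a median of 0.23. The 39 include Col25a1, which met the count rule only through treated mice. Of the 17163 genes tested, 8978 were above 0, with a median of 0.012. At 20 mg, 21 of 46 were above 0, with a median of -0.015 beside 0.015 over all genes. Between the doses, 40 of 46 were lower at 20 mg, with a median of -0.29 beside -0.0033 over all genes. The median at 10 mg was 0.44 for fibrillar genes and 0.16 for basement membrane genes, and at 20 mg it was 0.11 and -0.11. Mouse 1 of the group treated with 10 mg held the highest CPM of all 12 libraries for 28 of the 46 matrix genes (60.9%), against 14.3% of all genes tested. Without this mouse, the medians at 10 mg were 0.29 for fibrillar and 0.043 for basement membrane genes. Without mice 1 and 3 of that group and mouse 3 of the group treated with 20 mg, the same medians were -0.27 and -0.023. In that run 19 of the 46 values were above 0 at 10 mg and 17 at 20 mg, and 24 were lower at 20 mg than at 10 mg.

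**Figure D2:**
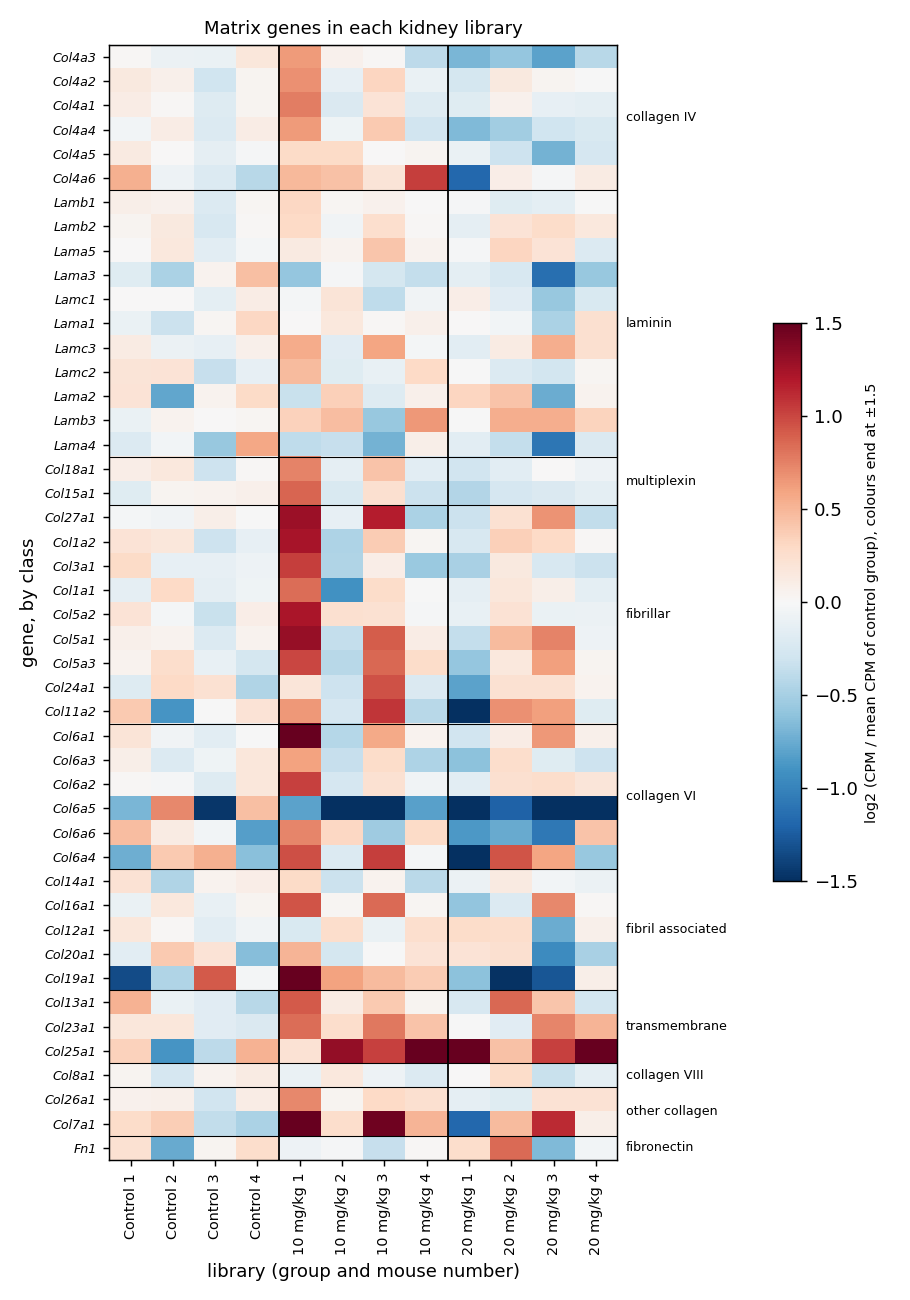
Each row is a matrix gene, grouped by class and ordered by level, and each column a library. Colour gives log2 of CPM over the mean CPM of the control group and ends at ±1.5. Mouse 1 of the group treated with 10 mg is raised for most collagens and is the highest library for 28 of 46 genes, and Col4a3 is low in all 4 mice of the group treated with 20 mg.

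**Figure D3:**
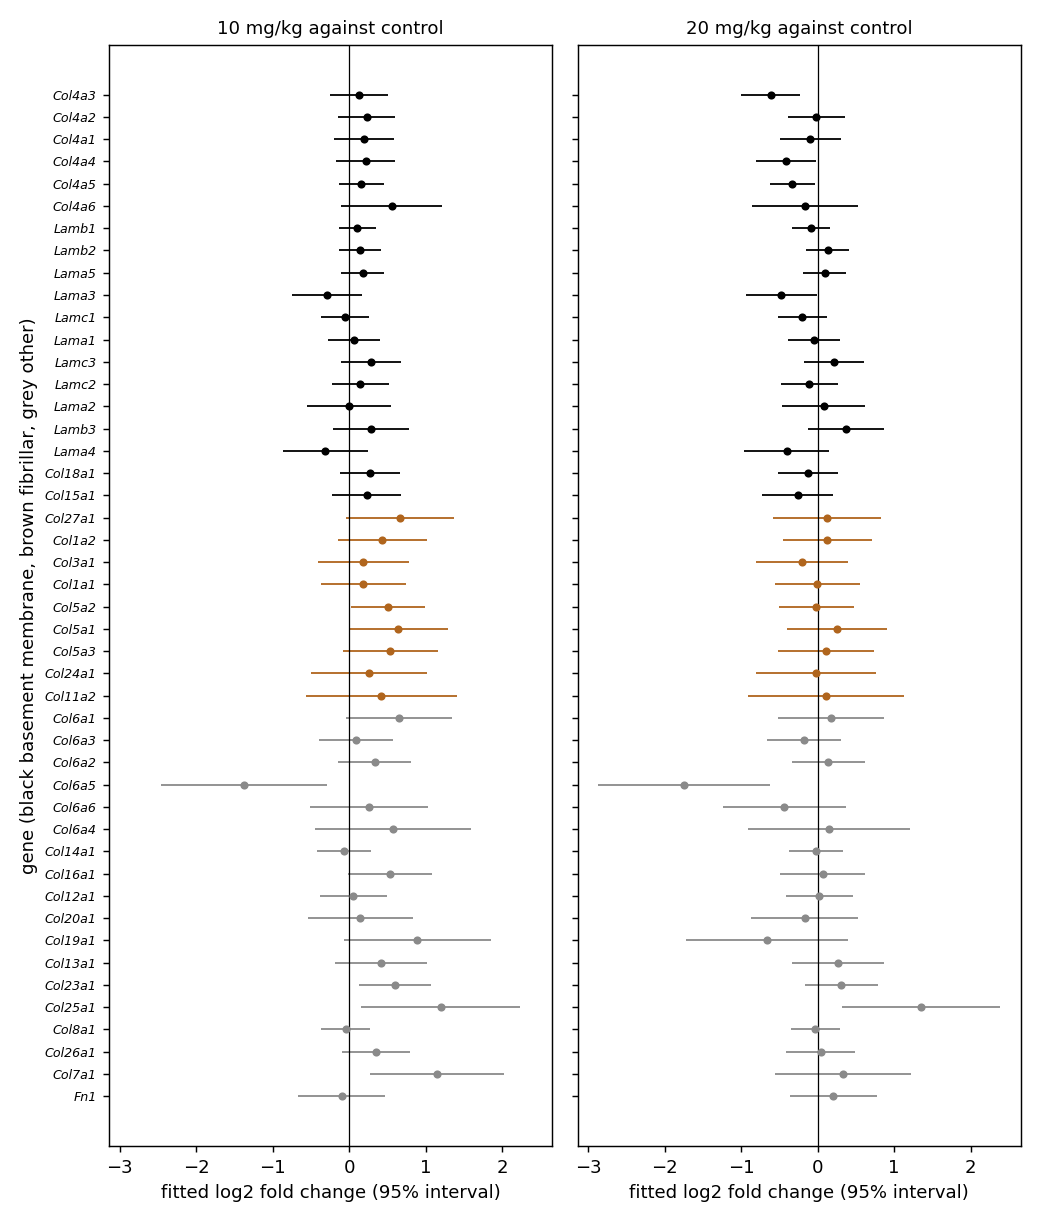
Fitted log2 fold change of each matrix gene against the control group at 10 mg and at 20 mg, with 95% intervals from the edgeR model of 12 libraries. Most points lie to the right of 0 at 10 mg (39 of 46), and Col4a3 and Col6a5 lie farthest to the left relative to their intervals at 20 mg.

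Within collagen IV, all 6 chains had a fitted value below 0 at 20 mg against control, and 3, the chains of the glomerular trimer, had an unadjusted p under 0.05. None of them passed the adjusted threshold in edgeR, and the signs of Col4a2 and Col4a6 turned when single libraries were left out. Col4a3 (ENSMUSG00000079465) stood at 333, 310, 309 and 371 CPM in the control mice, at 513, 347, 335 and 251 CPM in the group treated with 10 mg, and at 205, 222, 190 and 248 CPM in the group treated with 20 mg. All 4 mice given 20 mg lay below all control mice and all mice given 10 mg. The fitted log2 fold change was -0.61 (SE 0.18, 95% interval -0.997 to -0.231) against control, a fold of 0.653, with an edgeR adjusted p of 0.337. It was -0.74 (SE 0.18) against 10 mg, with an edgeR adjusted p of 0.758. An exact permutation test on the 4 against 4 values, two-sided and not adjusted, gave 0.0286 in both comparisons. This is the smallest p that 70 arrangements allow, and groups without overlap always give it, so it adds nothing to the lack of overlap. DESeq2 gave adjusted p-values of 0.0976 and 0.0972. Against control the value lay between -0.69 and -0.56 when any 1 library was left out, and was -0.56 without the 3 libraries of the highest share on no gene. Against 10 mg it was -0.52 without mouse 1 of that group and -0.41 without those 3 libraries. An antisense long non-coding RNA, C430014B12Rik, shares 8.46% of the exon bases of Col4a3, and its part in these counts was not tested.

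Col4a4 (ENSMUSG00000067158), the partner of Col4a3, stood at 293, 327, 262 and 328 CPM in the control mice and at 191, 211, 246 and 257 CPM with 20 mg, so that these groups did not overlap. With 10 mg it stood at 471, 289, 397 and 247 CPM, around and above the control range. The log2 fold change at 20 mg was -0.42 (SE 0.18) against control, with an edgeR adjusted p of 0.555. It was -0.63 (SE 0.18) against 10 mg, with an edgeR adjusted p of 0.758, and -0.28 without the 3 libraries named above. Only 2 of the 46 genes, Col4a3 and Col4a4, had all mice given 20 mg below all control mice, where 2.63% of all genes tested did.

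Col4a5, the third chain of this trimer, is present at a far lower level. It stood at 28.5, 25.95, 23.6 and 25.5 CPM in the control mice, at 31.5, 31.7, 26.0 and 26.6 CPM with 10 mg and at 24.1, 20.8, 15.8 and 21.7 CPM with 20 mg. Here 1 mouse given 20 mg lay within the control range, and all 4 lay below the group treated with 10 mg. The log2 fold change was -0.33 (SE 0.14) against control (edgeR adjusted p = 0.533) and -0.49 (SE 0.14) against 10 mg (edgeR adjusted p = 0.758). Against control it was -0.22 without mouse 3 of the group treated with 20 mg.

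Col4a1 and Col4a2, whose trimer is found in nearly all basement membranes, overlapped between all groups. Col4a1 stood at 216, 204, 175 and 207 CPM in the control mice and at 176, 210, 184 and 181 CPM with 20 mg, a log2 fold change of -0.093 with a 95% interval of -0.49 to 0.30. Col4a2 stood at 219, 208, 161 and 203 CPM and at 165, 218, 203 and 196 CPM, a log2 fold change of -0.015 with an interval of -0.39 to 0.36. Both intervals overlap that of Col4a3 given above. The difference between the chains was not tested, and ratios within a library are given next. With 10 mg, both genes were highest in mouse 1 (340.2 and 317 CPM) and second highest in mouse 3 (232 and 246 CPM), and mice 2 and 4 lay at 172 to 185 CPM. Col4a6 ranged from 0.644 to 2.99 CPM over the 12 libraries, and its 20 mg group lay below its 10 mg group (log2 fold change -0.72, SE 0.32, edgeR adjusted p = 0.769). Its standard error was larger than that of Col4a5 in the same comparison.

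**Figure D4:**
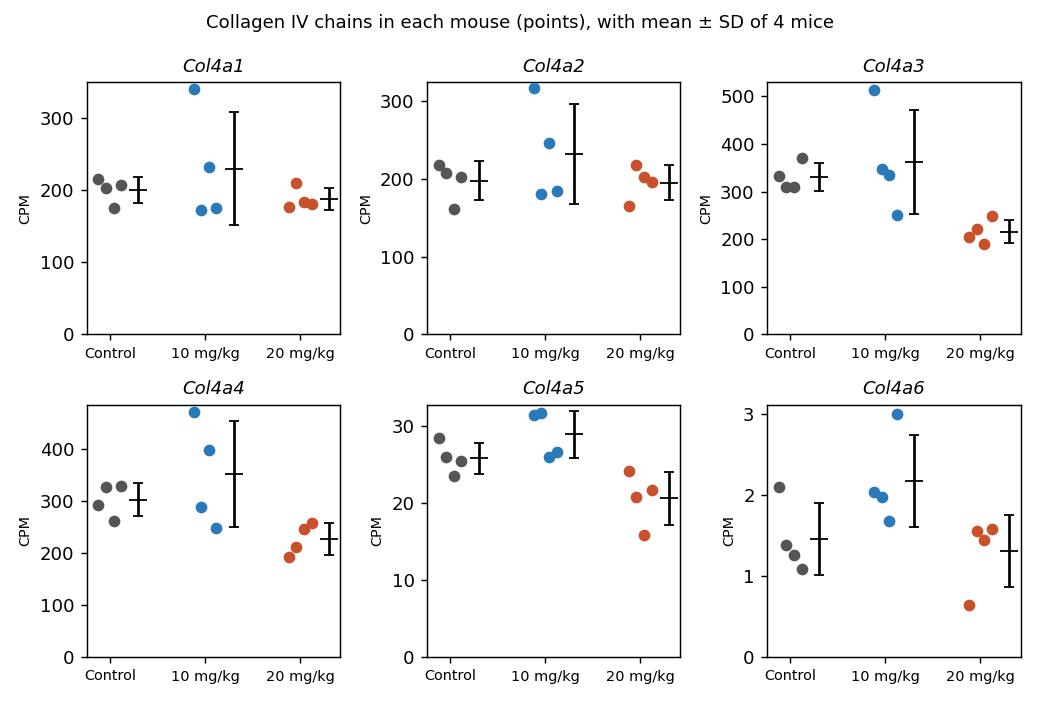
CPM of the 6 collagen IV genes in each mouse (points), with mean ± SD of the 4 mice of a group beside them and axes from 0. Col4a3 lies between 190 and 248 with 20 mg and between 309 and 371 in the control group, and Col4a1 and Col4a2 overlap between these groups.

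Ratios within a library, taken per kb of exon, compare the chains without any scaling between libraries. The ratio of Col4a3 to Col4a1 lay between 1.14 and 1.34 in the control group, between 1.08 and 1.51 with 10 mg and between 0.771 and 1.02 with 20 mg, so that the highest value with 20 mg was below the lowest of both other groups. The ratio of Col4a4 to Col4a1 lay between 0.885 and 1.05 in the control group and between 0.656 and 0.927 with 20 mg, which overlap. For Col4a5 to Col4a1, the range with 20 mg, 0.0687 to 0.109, held the whole control range, 0.0983 to 0.107. With 10 mg this ratio lay between 0.0739 and 0.147. The ratio of Col4a1 to Col4a2 lay between 0.874 and 1.05 in all 12 libraries. A ratio shows unequal change and not which of the genes differed. Markers of podocytes, the cells that make the Col4a3 trimer in the glomerulus, were measured as well. Their summed level was 496 to 552 CPM in the control group and 523 to 678 CPM with 20 mg. Most of that sum was Podxl, at 262 to 311 CPM in the control group and 298.5 to 367 CPM with 20 mg. At 20 mg 0 of 11 were called, and the median log2 fold change was 0.058. The log2 fold change of Wt1, a transcription factor of podocytes, was 0.27 with 20 mg (edgeR adjusted p = 0.656). At 10 mg the summed level was 463 to 534.5 CPM, and Wt1 had a log2 fold change of -0.18 (edgeR adjusted p = 0.906). Whether podocyte content had a part in the level of Col4a3 was not tested.

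The median and the summed level of the laminin chains lay close to control at both doses, and single chains varied more. The 11 chains had a median log2 fold change of 0.11 at 10 mg and -0.046 at 20 mg, with ranges from -0.31 to 0.28 and from -0.47 to 0.37. Their summed level was 462 to 549.7 CPM in the control group, 512 to 573 CPM with 10 mg and 477 to 519 CPM with 20 mg, and the groups overlapped. Lamc1, the gamma chain of most laminins, stood at 39.9, 39.8, 35.9 and 43.0 CPM in the control mice, 38.9, 45.4, 30.4 and 38.2 CPM with 10 mg and 42.5, 35.2, 26.8 and 33.9 CPM with 20 mg. Lama5 lay between 76.5 and 95.3 CPM in the control group, 88.5 and 114 CPM with 10 mg and 73.9 and 106 CPM with 20 mg.

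Lamb1, the beta chain of many developing and mature basement membranes, stood at 176, 173, 144 and 168 CPM in the control mice, 205, 169, 173 and 165 CPM with 10 mg and 163, 146, 149 and 164 CPM with 20 mg. Every mouse given 20 mg lay below every mouse given 10 mg, by a narrow margin, and the control group overlapped both. Lamb2, the beta chain that takes its place in the glomerular filter, stood at 83.0, 89.7, 68.8 and 82.2 CPM, 99.8, 77.9, 96.6 and 82.1 CPM, and 73.6, 93.0, 97.8 and 90.0 CPM in the same order of groups. Its ratio to Lamb1 per kb was 0.833 to 0.913 in the control group and 0.797 to 1.16 with 20 mg.

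Lama3, an alpha chain of epithelial laminins, was the laminin with the smallest p at 20 mg. It stood at 43.7, 35.8, 51.3 and 67.7 CPM in the control mice and at 44.8, 41.9, 22.7 and 33.4 CPM with 20 mg, with overlap, and at 33.2, 49.0, 41.3 and 38.8 CPM with 10 mg. The log2 fold change at 20 mg was -0.47 (SE 0.22, edgeR adjusted p = 0.578), and -0.29 without control mouse 4.

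Col18a1 and Col15a1, whose chains carry heparan or chondroitin sulfate and anchor basement membranes to the tissue beneath, followed mouse 1 of the group treated with 10 mg. Col18a1 stood at 180.2, 187, 136 and 170.1 CPM in the control mice, 283, 154, 227 and 151 CPM with 10 mg and 138, 151, 169 and 159 CPM with 20 mg. Between the doses the log2 fold change was -0.40 (SE 0.19, edgeR adjusted p = 0.782), and -0.20 without that mouse. Col15a1 stood at 10.3 to 12.3 CPM in the control group, at 21.4 CPM in mouse 1 and 9.39 to 13.8 CPM in the other mice given 10 mg, and at 8.61 to 10.6 CPM with 20 mg. Its log2 fold change between the doses was -0.49 (SE 0.22, edgeR adjusted p = 0.779), and -0.18 without mouse 1. A protein-coding gene of the opposite strand, Slc19a1, shares 12.7% of the exon bases of Col18a1.

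All 9 fibrillar genes had a fitted value above 0 at 10 mg, and this rested on mice 1 and 3. Without those mice and mouse 3 of the group treated with 20 mg, 1 of the 9 was above 0. The median log2 difference of the 9 genes from the control mean was 1.05 in mouse 1 and 0.86 in mouse 3 of that group, and -0.34 and 0.00027 in mice 2 and 4. In the group treated with 20 mg it was -0.35, 0.23, 0.31 and -0.077, and the control mice lay between -0.11 and 0.082. Summed over the 9 genes, the control group spanned 219 to 233 CPM, the group treated with 10 mg 181 to 523 CPM and the group treated with 20 mg 179.6 to 316 CPM. The treated groups thus lay on both sides of a narrow control range.

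Col1a1 and Col1a2, the chains of collagen I, and Col3a1, the chain of collagen III, showed no difference beyond the spread. Col1a1 stood at 9.03, 12.2, 9.02 and 9.46 CPM in the control mice, 17.8, 5.28, 12.0 and 9.86 CPM with 10 mg and 9.02, 11.1, 10.6 and 8.98 CPM with 20 mg. Col1a2 stood at 35.9, 35.2, 25.1 and 28.7 CPM, 73.4, 22.6, 40.8 and 31.8 CPM, and 26.5, 40.0, 38.4 and 31.6 CPM. Col3a1 stood at 25.95, 19.6, 19.6 and 20.2 CPM, 43.8, 15.6, 22.9 and 14.6 CPM, and 15.2, 23.7, 18.1 and 17.0 CPM. In all 3 genes the highest value was in mouse 1 of the group treated with 10 mg, and the mice of the group treated with 20 mg overlapped the control mice. Reads over Col1a2 may include those of an antisense long non-coding RNA, Gm66266, which shares 10.3% of its exon bases.

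The chains of collagen V, which set the diameter of collagen I fibers, behaved in a like way. Col5a2 stood at 15.4, 13.1, 10.6 and 14.3 CPM in the control mice, 31.2, 15.8, 15.6 and 13.2 CPM with 10 mg and 12.3, 15.5, 12.4 and 12.6 CPM with 20 mg. Its log2 fold change at 10 mg was 0.51 (SE 0.23, edgeR adjusted p = 0.847), the only fibrillar gene with an unadjusted p under 0.05 there, and it was 0.16 without mouse 1. Between the doses it was -0.53 (SE 0.23, edgeR adjusted p = 0.769), and -0.17 without mouse 1. Col5a1 lay between 8.06 and 9.79 CPM in the control group and at 22.9, 7.26, 17.4 and 10.0 CPM with 10 mg. Col27a1, a fibrillar collagen best known from cartilage, stood at 131, 128, 141 and 132 CPM in the control mice, 324, 122, 299.7 and 95.6 CPM with 10 mg and 106, 156, 212 and 103 CPM with 20 mg. The control mice of Col27a1 lay close together, and the 3 highest values were in the 3 libraries of the highest share on no gene. At 10 mg it had a log2 fold change of 0.66 with all libraries and -0.30 without these 3, and Col5a1 had 0.64 and -0.10.

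In collagen VI, which forms beaded microfilaments around cells, Col6a1 was high in mouse 1 of the group treated with 10 mg. It stood at 29.4, 25.0, 23.1 and 25.7 CPM in the control mice, 77.8, 19.1, 38.2 and 26.8 CPM with 10 mg and 21.2, 28.0, 40.5 and 27.2 CPM with 20 mg. At 10 mg the log2 fold change was 0.65, and -0.17 without the 3 libraries of the highest share on no gene. Col6a5 lay lower in the treated groups. It stood at 1.72, 4.58, 1.01 and 3.81 CPM in the control mice, 1.59, 0.726, 0.361 and 1.59 CPM with 10 mg and 0.879, 1.20, 0.360 and 0.847 CPM with 20 mg. The control mice differed by more than 4 times among themselves, and the treated mice overlapped the lower of them. The log2 fold change was -1.37 (SE 0.51, edgeR adjusted p = 0.812) at 10 mg and -1.75 (SE 0.53, edgeR adjusted p = 0.347) at 20 mg, where DESeq2 gave an adjusted p of 0.0876. It was -1.02 and -1.39 without control mouse 2.

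Among the fibril-associated collagens, which decorate the surface of fibers, Col16a1 was high in the same 3 libraries, at 33.2, 31.2 and 28.4 CPM, with 11.5 to 19.2 CPM in the other 9. The fitted log2 fold change at 10 mg was 0.53, and 0.023 without the 3. Col14a1, the most abundant of them, overlapped between groups, at 39.9 to 63.5 CPM in the control group, 41.1 to 66.5 CPM with 10 mg and 51.2 to 59.9 CPM with 20 mg. Col19a1 was low throughout, at 0.462, 0.859, 2.22 and 1.14 CPM in the control mice, 3.62, 1.78, 1.63 and 1.53 CPM with 10 mg and 0.761, 0.419, 0.480 and 1.24 CPM with 20 mg. All mice given 20 mg lay below all mice given 10 mg, with a log2 fold change of -1.56 (SE 0.48, edgeR adjusted p = 0.758), and -1.01 without the 3 libraries. Between the doses, 5 of the 46 genes had all mice given 20 mg below all mice given 10 mg (Col4a3, Col4a5, Col4a6, Lamb1 and Col19a1), where 1.4% of all genes tested did.

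Col7a1, the collagen of anchoring fibrils, and the transmembrane collagens Col23a1 and Col25a1 had the smallest p-values at 10 mg together with Col6a5. Col7a1 stood at 3.86, 4.10, 2.47 and 2.28 CPM in the control mice, 11.1, 3.83, 8.72 and 4.52 CPM with 10 mg and 1.41, 4.43, 6.90 and 3.39 CPM with 20 mg. The log2 fold change at 10 mg was 1.15 (SE 0.41, edgeR adjusted p = 0.812), and 0.38 (SE 0.35) without the 3 libraries of the highest share on no gene. Col23a1 stood at 4.79, 4.77, 3.78 and 3.64 CPM in the control mice and at 7.60, 5.08, 7.36 and 5.69 CPM with 10 mg, and was the only 1 of the 46 genes with all mice given 10 mg above all control mice, where 1.55% of all genes tested were. Its log2 fold change was 0.60 (SE 0.22, edgeR adjusted p = 0.812), and 0.33 (SE 0.23) without the 3 libraries. With 20 mg it stood at 4.22, 3.77, 7.08 and 6.04 CPM, which overlapped the control mice. Col25a1 had values from 0.143 to 1.05 CPM, and its log2 fold change was 1.20 (SE 0.49, edgeR adjusted p = 0.812) at 10 mg and 1.35 (SE 0.49, edgeR adjusted p = 0.446) at 20 mg. Without the 3 libraries it was 1.62 at 10 mg. These rest on 3 to 18 counts per library. Col25a1 met the count rule only through libraries of treated mice, so its differences from the control group are not independent of that rule.

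Fn1, the adhesive glycoprotein that is deposited early in fibrosis, stood at 26.6, 13.4, 23.3 and 27.2 CPM in the control mice, 21.5, 22.3, 17.8 and 22.9 CPM with 10 mg and 27.2, 40.8, 14.3 and 21.9 CPM with 20 mg. The groups overlapped. The 95% interval of the log2 fold change ran from -0.67 to 0.47 at 10 mg and from -0.36 to 0.77 at 20 mg. The lowest value of each group was in control mouse 2, mouse 3 given 10 mg and mouse 3 given 20 mg.

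The 3 libraries with the highest share of reads on no gene were the 3 highest of all 12 for 9 of the 46 genes (19.6%), where 7.84% of all genes tested had them highest. The 9 genes were Col16a1, Col23a1, Col27a1, Col5a1, Col5a3, Col6a1, Col7a1, Lamb2 and Lamc3. For the median of the fibrillar genes, the same libraries stood at 1.05, 0.86 and 0.31 above the control mean on the log2 scale. Control mouse 2, with a mitochondrial share of 5.77% and a share on no gene of 16.1%, stood at 0.053. Mouse 2 of the group treated with 20 mg, with shares of 23.4% and 14.9%, stood at 0.23. For the basement membrane genes the range over all 12 libraries was narrower, from -0.21 to 0.34, and both ends were among those 3 libraries. The part of these shares in the values was not tested.

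**Figure D5:**
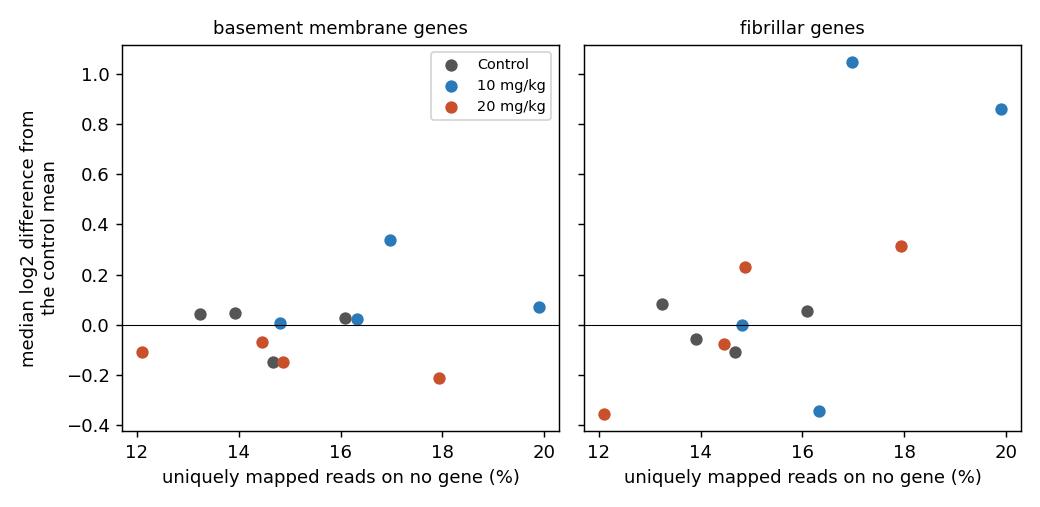
Median log2 difference from the control mean of the 19 basement membrane genes and of the 9 fibrillar genes in each library, against the share of uniquely mapped reads on no gene. For fibrillar genes the 2 highest points are mice 1 and 3 of the group treated with 10 mg (1.05 and 0.86), and basement membrane genes stay between -0.21 and 0.34.

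Genes that act on these chains were followed through lists of the same pathway. For each list below, the share called over all genes tested was 0.0291% at 10 mg and 0.303% at 20 mg. Of 20 tested genes of collagen synthesis and processing, 0 were called at either dose, and the median log2 fold change was 0.021 at 10 mg and -0.063 at 20 mg. Lox, the enzyme that cross-links collagen and elastin, stood at 4.12, 2.86, 2.82 and 2.12 CPM in the control mice and at 10.6, 11.5, 5.94 and 4.57 CPM with 20 mg. The groups did not overlap, and 459 of 17163 genes tested had all mice given 20 mg above all control mice. The log2 fold change of Lox was 1.44 (SE 0.35, edgeR adjusted p = 0.187). With 10 mg Lox stood at 2.43, 6.66, 3.30 and 6.10 CPM, and its low values were in mice 1 and 3, where the fibrillar genes were high. At that dose Lox had 0.61 on the log2 scale against control, and 1.08 without the 3 libraries of the highest share on no gene. Loxl4, a related cross-linking enzyme, differed at 20 mg by a log2 fold change of -0.91 (SE 0.26, edgeR adjusted p = 0.319) and -0.49 at 10 mg.

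Of 23 matrix receptor genes, 0 were called at 10 mg and 1 at 20 mg, where 0.303% of all genes tested were. The 1 was Itga6, the alpha chain of laminin-binding integrins. Itga6 stood at 90.1, 79.9, 78.6 and 90.3 CPM in the control mice, 52.7, 66.1, 51.5 and 64.1 CPM with 10 mg and 63.8, 55.2, 38.5 and 47.1 CPM with 20 mg. All 8 treated mice lay below all control mice. Of 17163 genes tested, 281 at 10 mg and 451 (2.63%) at 20 mg had all treated mice below all control mice. At 20 mg Itga6 fell by 0.73 on the log2 scale (SE 0.15, edgeR adjusted p = 0.082). At 10 mg its log2 fold change was -0.53 (SE 0.15, edgeR adjusted p = 0.765). The call at 20 mg was lost in 9 of the 12 runs that left out 1 library, and kept without mouse 1 or 2 of the group treated with 10 mg or mouse 1 of the group treated with 20 mg, with edgeR adjusted p-values of 0.0453 to 0.264 and log2 fold changes of -0.85 to -0.61. Itgb6, an epithelial chain of a receptor that activates latent TGF-beta, differed at 20 mg by a log2 fold change of -0.61 (SE 0.17, edgeR adjusted p = 0.308). At 10 mg, the receptor gene of the next smallest p was Itgb3, an integrin chain of platelets and bone, with a log2 fold change of 0.50 (SE 0.24, edgeR adjusted p = 0.870).

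Of 14 matrix proteases and inhibitors, 0 were called at either dose. Timp2, an inhibitor of metalloproteinases, stood at 33.2, 35.3, 29.4 and 32.1 CPM in the control mice and at 44.3, 52.7, 39.4 and 38.7 CPM with 20 mg. These groups did not overlap (log2 fold change 0.43, SE 0.15, edgeR adjusted p = 0.418), where 459 of 17163 genes tested lay wholly above control. Mmp14, a membrane-bound collagenase, stood at 15.0 to 28.4 CPM in the control group and at 18.5, 27.7, 90.9 and 30.6 CPM with 20 mg, with the highest value in mouse 3. Its log2 fold change was 1.13 (SE 0.43, edgeR adjusted p = 0.483), and 0.41 without the 3 libraries. At 10 mg, the smallest p-values were those of Adamts5 and Adamts4, proteases that cut aggrecan and versican, with log2 fold changes of -0.27 and 0.55 (edgeR adjusted p = 0.886 and 0.887), and Adamts4 had -0.015 without the 3 libraries.

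Of 16 other basement membrane and microfibril genes, 0 were called. Npnt, a ligand of integrins in renal basement membranes, differed at 20 mg by a log2 fold change of -0.46 (SE 0.15, edgeR adjusted p = 0.383). All 4 mice lay below the control mice, where 2.63% of all genes tested did. Nid2, a nidogen that joins laminin to collagen IV, had -0.38 at 10 mg (SE 0.14, edgeR adjusted p = 0.812). Eln, the gene of elastin, had 0.55 at 10 mg, and Frem1, an extracellular matrix protein, 0.59 at 20 mg (edgeR adjusted p = 0.872 and 0.467). Eln had -0.058 at 10 mg without the 3 libraries, and Nid2 had -0.24. Of 18 genes of TGF-beta signalling and fibrosis, 0 were called. Smad7, an inhibitor of that signalling, stood at 13.2 to 17.4 CPM in the control group, 19.1 to 29.8 CPM with 10 mg and 20.4 to 25.0 CPM with 20 mg. No treated mouse overlapped the control group (log2 fold change 0.49 at 10 mg and 0.48 at 20 mg, edgeR adjusted p = 0.796 and 0.391). Of 17163 genes tested, 266 (1.55%) at 10 mg and 459 at 20 mg had all treated mice above all control mice. Ccn1, a matricellular protein of the same family as Ccn2, had -0.62 at 10 mg and -0.78 at 20 mg (edgeR adjusted p = 0.812 and 0.391).

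Marker lists of cell types that make or neighbour the matrix were measured beside these values, and of each list the genes of smallest p are given. Fibroblast and pericyte markers summed to 235 to 272 CPM in the control group, 219.8 to 301 CPM with 10 mg and 268 to 372 CPM with 20 mg, and 0 of 10 were called. Of the 10, 3 were above 0 at 10 mg (median log2 fold change -0.054) and 5 at 20 mg (median -0.017, range -0.43 to 0.49). Lum and Dcn, small proteoglycans of fibroblasts, had log2 fold changes of -0.51 and -0.20 at 10 mg, and Rgs5 and Notch3, genes of pericytes, 0.49 and 0.41 at 20 mg. Without the 3 libraries, Lum and Dcn had -0.18 and 0.27 at 10 mg. In that run Rgs5 had 0.59 at 20 mg and was called (edgeR adjusted p = 0.0592), where 0.485% of all genes were. Smooth muscle markers summed to 195 to 227 CPM, 206 to 291 CPM and 228 to 315 CPM in the same groups. Of the 6, 1 was called at 20 mg, where 0.303% of all genes tested were. This was Myh11, the heavy chain of smooth muscle myosin, which rose by 0.71 on the log2 scale at 20 mg (SE 0.14, edgeR adjusted p = 0.076). The call was lost in 9 of the 12 runs without 1 library and kept without mouse 1 or 2 of the group treated with 10 mg or mouse 1 of the group treated with 20 mg. Myh11 and Des had 0.44 and 0.42 at 10 mg, and Acta2 had 0.31 at 20 mg. The list had 4 of 6 above 0 at 10 mg (median 0.21) and 6 of 6 at 20 mg (median 0.43). Without the 3 libraries, Myh11 and Des had 0.27 and -0.11 at 10 mg.

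Endothelial markers (9 genes) summed to 674 to 713 CPM in the control group, 633 to 779 CPM with 10 mg and 704 to 880.1 CPM with 20 mg, and 0 were called. Of these, 4 were above 0 at 10 mg (median log2 fold change -0.074, range -0.33 to 0.21) and 7 at 20 mg (median 0.14). Emcn and Eng had log2 fold changes of -0.33 and -0.24 at 10 mg, and Kdr and Plvap -0.33 and 0.34 at 20 mg. Without the 3 libraries, Emcn and Eng had -0.16 and -0.13 at 10 mg. Medulla and collecting duct markers (9 genes) summed to 1319 to 2253 CPM, 1652 to 2921 CPM and 1557 to 2061 CPM, and 0 were called, with 8 above 0 at 10 mg (median 0.28) and 6 at 20 mg (median 0.11). Slc5a3 and Slc12a1, transporters of the medulla, had 0.52 and 0.40 at 10 mg, and Slc5a3 and Slc14a2 had 0.27 and 0.55 at 20 mg. Resident immune markers (8 genes) summed to 194 to 226 CPM, 191.5 to 303 CPM and 184 to 314 CPM, and 0 were called, with 5 above 0 at each dose (medians 0.019 and 0.13). Cx3cr1, a receptor of macrophages, was at 31.2, 13.1 and 21.8 CPM in the 3 libraries of the highest share on no gene and at 2.92 to 6.83 CPM in the other 9. Its log2 fold change was 1.68 at 10 mg and 1.27 at 20 mg, and 0.049 and 0.55 without those 3. Cd68 had -0.59 at 10 mg and Cd74 had 0.25 at 20 mg, and these were -0.28 and 0.085 without the 3 libraries.

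Of 10 proximal tubule markers, 2 were called at 20 mg, where 0.303% of all genes tested were. At this dose 8 of the 10 were below 0 (median log2 fold change -0.24), and at 10 mg 7 were (median -0.16). The median over the list lay -0.44 to -0.16 from the control mean in the mice given 20 mg, -0.30 to -0.013 in those given 10 mg and -0.066 to 0.18 in the control mice, so that all mice given 20 mg lay below the control mice. Gatm, the enzyme of the committed step of creatine synthesis, fell by 1.00 on the log2 scale (edgeR adjusted p = 0.0357), and Slc5a2, the glucose transporter of the early proximal tubule, fell by 0.61 (edgeR adjusted p = 0.082). Without 1 library, the call of Gatm was lost in 3 of 12 runs (control mouse 1 or 4, or mouse 2 given 20 mg) and that of Slc5a2 in 8 (each control mouse and each mouse given 20 mg). At 10 mg, Gatm and Slc34a1 had log2 fold changes of -0.72 and -0.30. Adipocyte markers (7 genes) summed to 124 to 349 CPM in the control group, 84.8 to 182 CPM with 10 mg and 81.2 to 130.2 CPM with 20 mg. Of the 7, 0 were called at 10 mg and 1 at 20 mg, where 0.0291% and 0.303% of all genes tested were. The 1 was Car3 (log2 fold change -1.97, edgeR adjusted p = 0.0516). Its call was lost in 6 of 12 runs, those without control mouse 1, 2 or 4 or mouse 1, 2 or 3 given 20 mg. Cidec had -3.02 at 20 mg, and Fabp4 and Car3 had -0.75 and -0.97 at 10 mg. Markers of urothelium and papilla (7 genes) differed from mouse to mouse, from 1.36 to 18.9 CPM in the control group, 0.542 to 26.7 CPM with 10 mg and 4.85 to 6.62 CPM with 20 mg, and 0 were called. Krt15 and Krt5 had 1.08 and 1.14 at 10 mg, and 1.48 and 2.08 without the 3 libraries. Psca and Upk2 had -1.05 and 0.53 at 20 mg. The list had 5 of 7 above 0 at 10 mg (median 0.55) and 3 at 20 mg (median -0.086), and the adipocyte list had 0 of 7 at each dose (medians -1.63 and -3.02). Over the marker genes named that were not called, edgeR adjusted p-values lay between 0.534 and 0.943 at 10 mg and between 0.253 and 0.900 at 20 mg. Whether these differences in tissue content had a part in the matrix genes was not tested.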

How the data were processed

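Kidney RNA of 12 mice, 4 in each of 3 groups, was analysed. The authors checked, trimmed and filtered the reads (FastQC 0.11.9, Flexbar), mapped them to GRCm39 with STAR 2.7.5c and counted them with HTSeq 1.99.2. The deposited files hold whole counts for 57180 Ensembl genes per library, without normalization. The annotation release, the strand setting and the use of molecular identifiers were not given in the sources used here. The 46 genes, their classes and all gene lists were chosen with earlier results of these data known.

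Identifiers were matched to GENCODE vM39 (99.0% of identifiers, 99.95% of counts). No pair of libraries held identical counts. Genes kept by filterByExpr (17163) were fitted with edgeR 4.0.16 in R 4.3.3, with TMM normalization, a quasi-likelihood model and a mean for each group over all 12 libraries. The Benjamini-Hochberg adjustment of p-values ran over these 17163 genes, with calls at an adjusted p below 0.1. CPM values printed here use TMM library sizes. Alternatives were RLE and upper-quartile normalization, DESeq2 1.42.0, limma-voom (limma 3.58.1), other filters, models of only 2 groups, a replicate block, mitochondrial share as covariate or criterion, and leaving out each library. Leaving out the 3 libraries of the highest share on no gene and using that share as covariate were added after the data were seen. The test was run on simulated data first. Genes named in the text are those called, the 5 of smallest p per comparison, the main collagen IV, laminin, collagen I and III chains, Col18a1 and Fn1, and from each list those called and the 2 of smallest p per dose, of which some are not reported here. Further members are named for their levels and were chosen after their values were seen. P-values set differences between groups of 4 mice against the spread between libraries, which the main test estimated over all 12. With 1 library per mouse, differences between mice and between libraries cannot be separated in that spread. Repeated reads of 1 molecule could not be removed from the counts.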

Additional observations from a re-analysis of the deposited data

Results flagged for a closer look

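In 6 of 63 sets of 4 mice tested, 1 mouse lay far from the other 3 by Dixon's criterion at 95%, and chance flags about 1 in 20 such sets. Col1a1 was 12.2 CPM in control mouse 2 and 9.02 to 9.46 CPM in the others. Col3a1 was 25.95 CPM in control mouse 1 and 19.6 to 20.2 CPM in the others. In mouse 1 of the group treated with 10 mg, Col5a2 was 31.2 CPM against 13.2 to 15.8 CPM, and Col19a1 was 3.62 CPM against 1.53 to 1.78 CPM. In the group treated with 20 mg, Col5a2 was 15.5 CPM in mouse 2 against 12.3 to 12.6 CPM, and Col4a6 was 0.644 CPM in mouse 1 against 1.44 to 1.58 CPM.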

How the results depend on the processing

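The number of matrix genes called was 0 in each comparison in the main test and with RLE or upper-quartile normalization, limma-voom, the filter of at least 10 counts in at least 4 libraries, a model of only 2 groups, a table without mitochondrial and ribosomal RNA genes, a threshold of 0.05, the share on no gene as covariate, without the 3 libraries of highest share on no gene, and in each of the 12 runs without 1 library. Without a filter, 4 genes were called at 10 mg (Col27a1, Col6a1, Col6a5 and Col7a1), 2 at 20 mg (Col4a3 and Col6a5) and 4 between the doses (Col19a1, Col4a3, Col4a4 and Col7a1), with 0.827%, 1.04% and 0.64% of all 40012 genes called, and the cause was not tested. At 20 mg against control, 2 were called with DESeq2, 3 with the mitochondrial share as covariate (Col4a3, Col6a5 and Lama3, with 8.07% of all genes called) and 1 without libraries of a mitochondrial share under 10% (Col4a3, with 0.611%). Between the doses, DESeq2 called 1. The fibrillar median at 10 mg was -0.15 without the libraries of low mitochondrial share and -0.27 without the 3 libraries of the highest share on no gene, where the basement membrane median was -0.023. The fibrillar median between the doses was 0.17 in both of these runs. Those runs leave 2 mice in the group treated with 10 mg. Without 1 library, the fibrillar median lay between 0.29 and 0.60 at 10 mg, -0.10 and 0.23 at 20 mg and -0.55 and -0.17 between the doses, and the basement membrane median between 0.04 and 0.21, -0.21 and -0.05, and -0.26 and -0.13. Col4a2 at 20 mg was 0.080 with the mitochondrial share as covariate, and without 1 library Col4a2 lay between -0.10 and 0.055 and Col4a6 between -0.28 and 0.071. Col15a1 between the doses was 0.0018 without the libraries of low mitochondrial share and 0.0020 without the 3 libraries. Mice of the same number did not deviate together (4 of 12 pairs had a correlation above 0.1, with a range of -0.33 to 0.32, and 3 of 12 libraries correlated best with their own number). With the replicate number as a block, 0 matrix genes were called in each comparison, and 4, 27 and 0 genes of all tested, against 5, 52 and 0 without it, and the calls of Itga6, Myh11 and Slc5a2 were lost.

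The common coefficient of biological variation was 0.208. Genes under 1 CPM, such as Col25a1 and Col11a2, rest on few counts, and differences between mice set the limit for the others.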
